A study of Mus musculus with 12 samples.

Results

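The mitochondrial ribosomal protein genes are the nuclear genes whose products, together with RNA made inside the organelle, form the ribosome of mitochondria. They were taken as all genes with a symbol that starts with Mrpl or Mrps followed by a number and that a probe set of the platform annotation names alone. This gave 74 of the 12393 genes so measured, read by 127 of 22626 probe sets. By symbol, 47 genes belong to the large subunit (Mrpl) and 27 to the small subunit (Mrps). Where several probe sets name a gene, the brightest on average over the 12 arrays was used.

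Mitochondria keep their own ribosome, which translates the few messenger RNAs of the mitochondrial genome, all of them coding for hydrophobic subunits of the respiratory chain and of ATP synthase. The small subunit decodes the messenger RNA, and the large subunit forms the peptide bond and carries the exit tunnel. Many of its proteins have counterparts in bacterial ribosomes, others are found only in mitochondria, and all are made in the cytosol and imported, so that their supply depends on nuclear transcription. Factors known to act on nuclear genes for mitochondrial proteins include NRF1, the ETS family factor GABP and YY1.

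The samples were total RNA from the white portion of the gastrocnemius, a calf muscle region rich in fast glycolytic fibres, hybridized to Affymetrix MOE430A arrays, 1 array per mouse. The knockout group was 6 mice labelled AMPK gamma3 knock-out, which lack a regulatory subunit of AMP-activated protein kinase that is encoded by Prkag3 and found mainly in fast muscle. The reference was 6 wild type littermates. All mice of both groups were male C57BL/6 of generation F7, 14 weeks old and fasted overnight, and the labels do not give the deleted exons or the cells of origin of the allele. Prkag3 was not analysed here, so the loss of the targeted transcript was not checked. The genotype written in the array records matched the label on 12 of 12 arrays. All 10 fast fibre markers were measured, with group means of log2 intensity between 11.98 and 14.31 in knockout and between 12.09 and 14.32 in wild type. Values are log2 of the intensities that the authors made with RMA, a procedure that equalizes the distribution of values between arrays. A shift shared by most transcripts therefore cannot be seen, and in whole muscle fewer cells of a type and less RNA per cell cannot be told apart.

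The start regions of 7 member genes are shown because they carry the letters discussed below or belong to the genes with the smallest p-values. Each stretch holds the 100 bases before the RefSeq start and the first 30 transcribed bases (assembly GRCm38.p6), written 5′ to 3′ on the strand of the gene. Capitals mark matches to the NRF1 core CGCATGCG, the ETS core CCGGAAG or the YY1 core AAGATGGC, on either strand.
Mrpl22, chr11:58171564-58171693, plus strand: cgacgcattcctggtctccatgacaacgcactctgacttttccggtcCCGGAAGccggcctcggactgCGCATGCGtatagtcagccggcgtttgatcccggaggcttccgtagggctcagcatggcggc
Mrpl32, chr13:14613008-14613137, minus strand: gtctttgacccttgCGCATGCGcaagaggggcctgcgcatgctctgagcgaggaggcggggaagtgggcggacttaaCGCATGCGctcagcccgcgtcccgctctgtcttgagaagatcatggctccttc
Mrpl33, chr5:31613851-31613980, plus strand: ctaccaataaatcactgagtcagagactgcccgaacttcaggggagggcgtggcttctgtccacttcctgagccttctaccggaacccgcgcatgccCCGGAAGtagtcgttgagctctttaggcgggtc
Mrpl34, chr8:71464826-71464955, plus strand: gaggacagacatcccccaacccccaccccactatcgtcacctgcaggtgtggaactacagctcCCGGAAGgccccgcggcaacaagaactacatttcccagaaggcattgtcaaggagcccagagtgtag
Mrps12, chr7:28741792-28741921, minus strand: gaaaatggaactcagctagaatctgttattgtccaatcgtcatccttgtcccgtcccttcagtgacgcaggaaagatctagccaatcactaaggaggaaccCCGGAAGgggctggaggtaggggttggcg
Mrps18a, chr17:46110904-46111033, plus strand: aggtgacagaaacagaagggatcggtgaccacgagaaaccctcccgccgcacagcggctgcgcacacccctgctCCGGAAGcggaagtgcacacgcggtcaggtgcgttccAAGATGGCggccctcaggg
Mrpl44, chr1:79775918-79776047, plus strand: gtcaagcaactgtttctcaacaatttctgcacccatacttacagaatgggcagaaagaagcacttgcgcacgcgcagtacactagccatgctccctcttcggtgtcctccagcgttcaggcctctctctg
The stretch of Mrpl22 holds an ETS core and an NRF1 core, and that of Mrpl32 holds 2 NRF1 cores. Mrps18a holds an ETS core and, just after the start, a YY1 core. The ETS core of Mrps12 and that of Mrpl33 lie next to the start, and that of Mrpl34 lies farther up. The stretch of Mrpl44 holds none of the 3 cores.

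No member gene passed the threshold in the comparison of knockout with wild type muscle, which asks whether transcripts of the mitochondrial ribosome differ in fast muscle without AMPK gamma3. In limma's fit over all probe sets, 0 of the 74 genes had a Benjamini-Hochberg adjusted p below 0.05, where 0.0242% of all genes did, and the smallest adjusted p of a member was 0.781. At an unadjusted p below 0.05, 1 member was higher in knockout (Mrpl33), against 3.37% of all genes, and 2 were lower (Mrpl44 and Mrpl34), against 2.86% of all genes. The genotypes did not overlap for 0 members, against 0.371% of all genes. Of the 74 differences, 38 were above 0 and 36 below. The median difference, knockout minus wild type, was 0.0012 on the log2 scale, with a range from -0.20 to 0.15, beside a median of -0.0043 over all genes.

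The arrays bound these differences closely for the probe set used per gene. The intervals do not cover other probe sets of a gene, such as those of Mrpl33 and Mrpl42 given below. The 95% interval of the difference lay within 0.2 on the log2 scale of 0, a change of 14.9% up or 12.9% down, for 66 of the 74 genes, within 0.25 for 69 and within 0.4 for all 74. The lowest bound was -0.35, for Mrpl44, and the highest was 0.31, for Mrpl18. The median size of the difference, sign aside, was 0.033 among members and 0.044 among all genes. The SD between arrays of 1 genotype had a median of 0.082 among members and 0.10 among all genes.

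**Figure D1:**
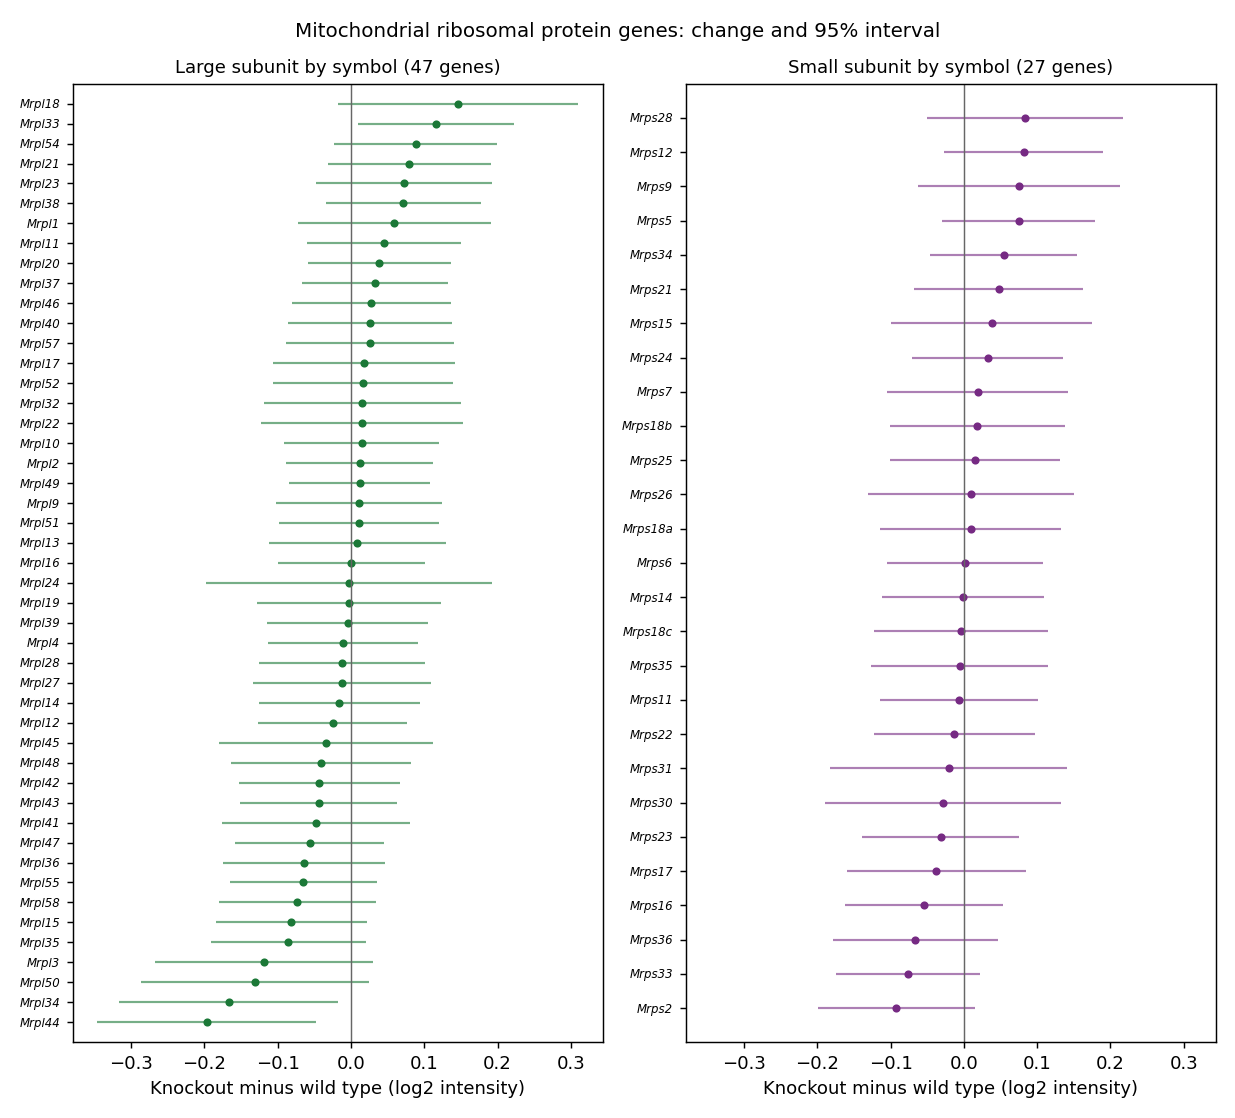
Difference between knockout and wild type in log2 intensity (x axis) for each mitochondrial ribosomal protein gene (y axis), large subunit on the left and small subunit on the right. Points are differences of the means of 6 arrays per genotype and lines are 95% intervals from limma. The intervals of Mrpl44, Mrpl34 and Mrpl33 do not cross 0, and no gene had an adjusted p below 0.05.

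The medians of the subunits lay close to each other. Over the 47 large subunit genes the median difference was 0.00038, with 24 genes above 0 and 23 below. Over the 27 small subunit genes it was 0.0021, with 14 above and 13 below. Symbols are an imperfect guide to place: the products of Mrps30 and Mrps18a sit in the large subunit, and that of Mrps36 is a component of the alpha-ketoglutarate dehydrogenase complex. Mrps30 differed by -0.029 ± 0.076 (SE), Mrps18a by 0.0090 ± 0.058 and Mrps36 by -0.066 ± 0.053 (limma, adjusted p = 0.981, 0.994 and 0.920). With genes sorted by place, the medians were 0.00038 over 49 large subunit genes and 0.0057 over 24 small subunit genes. The 46 genes classed here as related to bacterial ribosomal proteins had a median of 0.0089, with 26 above 0 and 20 below. They include Mrpl55 (-0.065), whose place in this class is doubtful. The 27 genes classed here as found only in mitochondria had a median of -0.0056, with 12 above and 15 below.

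Mrpl44, a large subunit protein with a ribonuclease III-like fold whose human gene is mutated in an inherited heart muscle disease, had the smallest p among members. Its log2 intensity ran from 8.57 through a median of 8.98 to 9.06 in knockout muscle, against 8.99, 9.12 and 9.18 in wild type muscle. In 4 of 6 knockout arrays it lay below every wild type array, and the other two fell inside the wild type range. The difference was -0.20 ± 0.071 (SE), a level lower by 12.8%, with an unadjusted p of 0.0129 and an adjusted p of 0.781 in limma. It was below 0 in each of the 3 wash runs (arrays grouped here by their recorded hybridization times), at -0.26, -0.19 and -0.14. Knockout replicate 2, at 8.57, was the lowest array, and without it the difference was -0.13 (adjusted p = 0.635). The other probe sets of Mrpl44 differed by less, at -0.071 ± 0.088 and -0.039 ± 0.063.

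Mrpl34, the counterpart of bacterial protein L34, had 8.83, 8.90 and 9.23 as its lowest, median and highest log2 intensity in knockout, against 9.0, 9.13 and 9.29 in wild type. Here too 4 of 6 knockout arrays lay below all wild type arrays, but knockout replicate 4 stood near the top of the wild type range. The difference was -0.17 ± 0.071, with an unadjusted p of 0.0305 and an adjusted p of 0.810 (limma). Within wash runs it was -0.30, 0.0088 and -0.21, so the middle run did not show it. The second, dimmer probe set of Mrpl34 differed by less, at -0.022 ± 0.059.

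Mrpl33, the counterpart of bacterial L33, was the member with the smallest p among those higher in knockout. Its log2 intensity was 6.92, 7.01 and 7.16 (lowest, median, highest) in knockout, against 6.84, 6.93 and 6.97 in wild type. In 5 of 6 knockout arrays it exceeded every wild type array. The difference was 0.12 ± 0.050, with an unadjusted p of 0.0339 and an adjusted p of 0.812 (limma). Its second probe set went the other way, at 6.31 in knockout against 6.49 in wild type on average, a difference of -0.18 ± 0.053 (limma, unadjusted p = 0.00399, adjusted p = 0.707). The mean of both probe sets differed by -0.031, so these arrays give no single direction for Mrpl33.

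**Figure D2:**
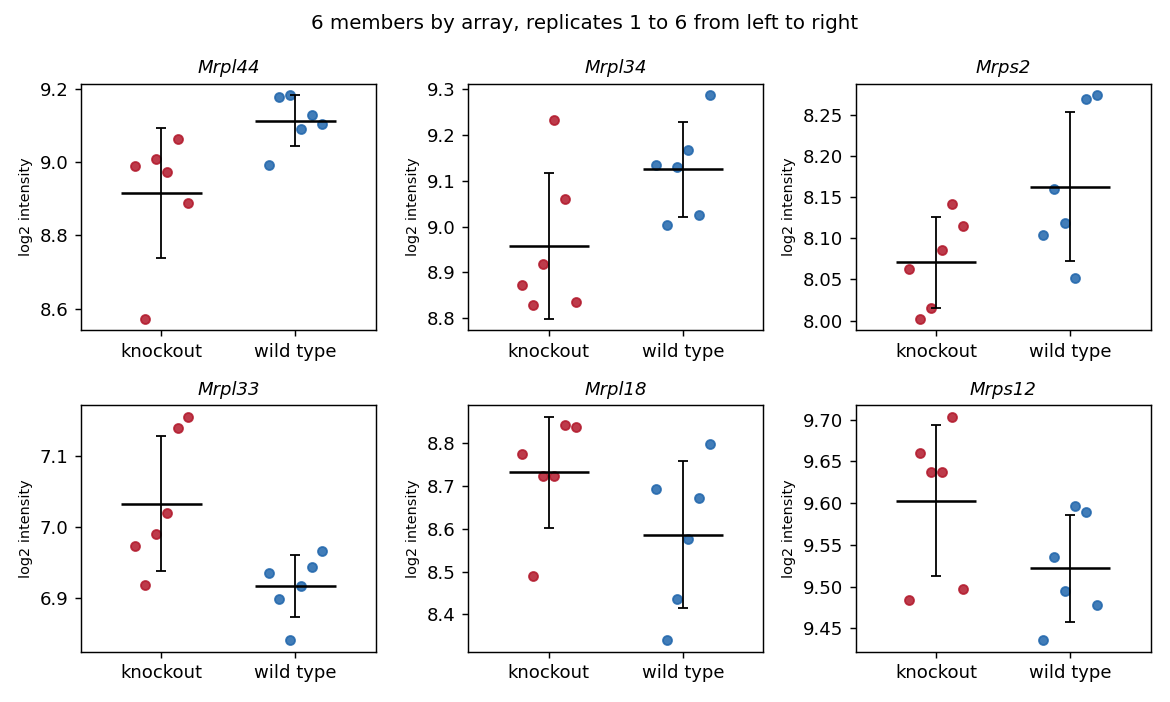
Log2 intensity (y axis) of 6 member genes in knockout and wild type muscle (x axis), 1 point per array with replicates 1 to 6 from left to right, the mean as a bar and the SD as a whisker. The genotypes overlap in each panel. Knockout replicate 2 lies apart from the other knockout arrays for Mrpl44 (8.57) and Mrpl18 (8.49).

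The other large subunit genes with the smallest p-values stayed at unadjusted p-values above 0.05 on the probe sets used. Mrpl18, the counterpart of a protein that binds 5S RNA in bacterial ribosomes, had 8.49, 8.75 and 8.84 (lowest, median, highest) in knockout, against 8.34, 8.62 and 8.80 in wild type. Only 2 of 6 knockout arrays exceeded every wild type array, and the difference was 0.15 ± 0.078, or 0.097 without wild type replicate 2. Mrpl54, a protein found only in mitochondria, differed by 0.088 ± 0.053 (0.058 without knockout replicate 5), and Mrpl21, the counterpart of bacterial L21, by 0.080 ± 0.053. In the other direction, Mrpl50, also found only in mitochondria, differed by -0.13 ± 0.074, or by -0.084 without wild type replicate 5. Mrpl3, whose bacterial counterpart reaches toward the site of peptide bond formation, differed by -0.12 ± 0.071, and Mrpl35 by -0.086 ± 0.050. All of the probe sets used for these genes had adjusted p-values between 0.865 and 0.898 in limma. Dimmer probe sets went the other way for Mrpl21 (-0.033 ± 0.063) and Mrpl50 (0.045 ± 0.079). Those of Mrpl3 (-0.020 and -0.067) and Mrpl35 (-0.12 ± 0.055, limma, unadjusted p = 0.0444, adjusted p = 0.818) went the same way.

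In the small subunit, Mrps12 and Mrps5 led the genes higher in knockout and Mrps2 those lower. Mrps12, the counterpart of the bacterial decoding-site protein S12, had 9.48, 9.64 and 9.70 (lowest, median, highest) in knockout, against 9.44, 9.52 and 9.60 in wild type. The difference of 0.081 ± 0.052 had an adjusted p of 0.897 (limma), and 4 of 6 knockout arrays exceeded all wild type arrays. Mrps5, the counterpart of bacterial S5, differed by 0.075 ± 0.049. Mrps2, the counterpart of bacterial S2, had 8.0, 8.07 and 8.14 in knockout, against 8.05, 8.14 and 8.27 in wild type, a difference of -0.092 ± 0.051 (limma, adjusted p = 0.873).

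There are 4 members on chromosome 1, which also carries Prkag3. Counted in measured genes along the RefSeq order of that chromosome (708 genes), Mrpl44 lies 35 places after Prkag3, Mrps9 lies 106 before, Mrpl15 202 before and Mrps14 300 after. Mrpl15, the counterpart of bacterial L15, had 9.88, 9.94 and 10.06 in knockout, against 9.97, 9.99 and 10.16 in wild type, with 5 of 6 knockout arrays below all wild type arrays. Its difference was -0.081 ± 0.049 (limma, adjusted p = 0.886). Mrpl15 had 7 probe sets, and those not used differed by -0.066, -0.088, -0.024, 0.013, -0.030 and 0.019. Mrps9 differed by 0.075 ± 0.065, or by 0.036 without wild type replicate 1 and 0.040 without knockout replicate 4, and Mrps14 by -0.0017 ± 0.052. The neighbours of Mrpl44 did not share a direction. Among the 5 measured genes on each side, Farsb, Wdfy1 and Rhbdd1 were higher in knockout and the others lower. Differences ran from -0.20 for Kcne4 (limma, unadjusted p = 0.00285, adjusted p = 0.656) to 0.17 for Farsb (unadjusted p = 0.0101, adjusted p = 0.780). Over all genes, 3.37% were higher and 2.86% lower at an unadjusted p below 0.05.

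Several genes could be read more than once, and their probe sets did not always tell the same story. Of the 74 members, 41 had 1 probe set and 33 had several, and for 13 of these the probe sets pointed in both directions. Mrps9 had 4 probe sets, with differences of 0.075, -0.070, 0.11 and 0.12, the last with an unadjusted p of 0.0354 (limma, adjusted p = 0.816). A second, dimmer probe set of Mrpl42, singled out after its values were seen, differed by -0.19 ± 0.062 (unadjusted p = 0.00742, adjusted p = 0.764), while the brighter one used for the gene differed by -0.043 ± 0.052. Probe sets that name a member together with another gene were not used (Mrpl30, Mrpl53 and a second one for Mrps34), and 7 of the chosen probe sets carry a suffix that marks probes shared between transcripts.

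The steadiest members were Mrpl49 and Mrpl20 in the large subunit and Mrps33 and Mrps34 in the small subunit, with SDs within genotype between 0.057 and 0.063. Mrpl49 had 7.93, 8.06 and 8.11 in knockout, against 7.96, 8.04 and 8.10 in wild type, a difference of 0.012 ± 0.046 (limma, adjusted p = 0.988). Mrpl20 differed by 0.039 ± 0.046, Mrps34 by 0.054 ± 0.047 and Mrps33 by -0.076 ± 0.046. The widest spread was in Mrpl24 (SD 0.19) and Mrpl18 (0.15) of the large subunit and in Mrps31 (0.15) and Mrps30 (0.15) of those named Mrps. Mrpl24 ran from 8.65 to 9.25 in knockout and from 8.76 to 9.12 in wild type, with nearly equal means.

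The members varied together from array to array, and their levels overlapped between genotypes. The array level, the mean over genes of log2 intensity after centring each gene, averaged -0.0039 ± 0.051 in knockout and 0.0039 ± 0.039 in wild type for the large subunit (SD, n = 6 each). For the small subunit it averaged 0.0023 ± 0.056 in knockout and -0.0023 ± 0.047 in wild type. Large and small subunit lay on the same side of 0 on 11 of 12 arrays, and the largest gap between them on any array was 0.036. Over all members the lowest array was knockout replicate 2, at -0.074, and the highest were knockout replicate 5, at 0.065, and wild type replicate 5, at 0.060. The difference between genotypes within the 3 wash runs was -0.052, 0.060 and -0.018, so its sign turned between runs.

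RNA quality and fibre content differed between the same arrays. RNA quality was read from the 3' over 5' ratio of the array's control probe sets on the log2 scale, where a higher ratio marks more degraded RNA. The ratio was lowest in knockout replicate 2 (-0.22) and highest in knockout replicate 5 (0.0017), and the other arrays lay between -0.19 and -0.074. The array level of the 10 slow fibre markers ran from -0.59 to 0.84 in knockout and from -0.54 to 0.86 in wild type, with 0.84 in knockout replicate 2 and -0.52 in knockout replicate 5. Wild type replicate 5, also among the highest for the members, had a slow marker level of 0.61 and an RNA ratio of -0.18. Wild type replicates 4 and 6 combined member levels of 0.030 and 0.021 with slow marker levels of 0.86 and 0.41. Of these markers 9 of 10 were lower in knockout on average, with a median difference of -0.35 and no unadjusted p below 0.05. That median depended on single arrays, at -0.16 without wild type replicate 4 and -0.60 without knockout replicate 2, and was -0.15 with the fluidics module as a block. The part of RNA quality and fibre content in the level of the members was not tested.

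**Figure D3:**
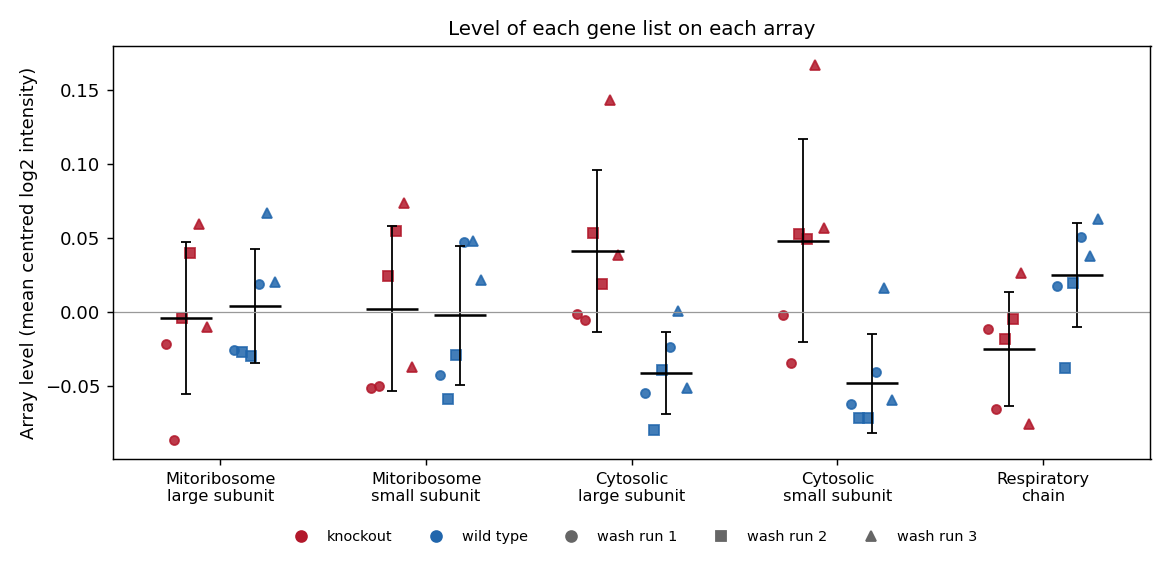
Array level (y axis, mean of gene-centred log2 intensity) of 5 gene lists in knockout (red, left in each pair) and wild type (blue, right), 1 point per array, with symbols for the 3 wash runs, the mean as a bar and the SD as a whisker. Levels of both mitochondrial subunits overlap between genotypes, with knockout replicate 2 lowest for the large subunit at -0.087.

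After genotype means were removed, pairs of member genes had a median Pearson correlation of 0.27 over the 12 arrays, against 0.030 for pairs drawn from all genes. Other lists of this kind had medians of similar size or above, at 0.25 within the respiratory chain, 0.24 within the cytosolic large subunit and 0.40 within the cytosolic small subunit. The median was 0.27 within the large subunit, 0.27 within the small subunit and 0.27 between them. These are descriptions: the pairs share 12 arrays, their RNA quality and their fibre content. Mrpl23 followed the mean of the other members most closely (r = 0.90), and Mrps5 (r = -0.30) and Mrpl46 (r = -0.23) lay at the other end.

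Other ribosome and respiratory chain genes leaned to 1 side on the same arrays. Among cytosolic ribosomal protein genes, 24 of 26 of the large subunit were higher in knockout, with a median difference of 0.082, and 20 of 20 of the small subunit, with a median of 0.11. Among nuclear genes of the respiratory chain, 65 of 78 were lower, with a median of -0.054. None of these genes had an adjusted p below 0.05, and 7, 8 and 12 of them had an unadjusted p below 0.05 in the direction of their list, beside 3.37% higher and 2.86% lower among all genes. Over all genes, 5876 were higher and 6517 lower. Knockout replicate 5, the array with the highest RNA ratio, was the highest for both cytosolic lists, at 0.14 and 0.17, and without it their medians were 0.061 and 0.082. Respiratory chain genes and slow fibre markers were both lower in knockout by their medians. By array level, the respiratory chain was lower in every wash run, though near 0 in the middle one. In that run the slow marker level was higher in knockout. Within the 3 runs the respiratory chain level differed by -0.072, -0.0027 and -0.075, and the slow marker level by -0.23, 0.36 and -1.06. The part of RNA quality and fibre content in these lists was not tested. The directions of these medians were the same after centring or quantile normalization of the arrays and without any single array. The split of the mitochondrial ribosomal genes was not: 36 of 74 were lower with the deposited scaling, 28 after centring each array on its median and 48 after a further quantile normalization. No test of the difference between lists was made.

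**Figure D4:**
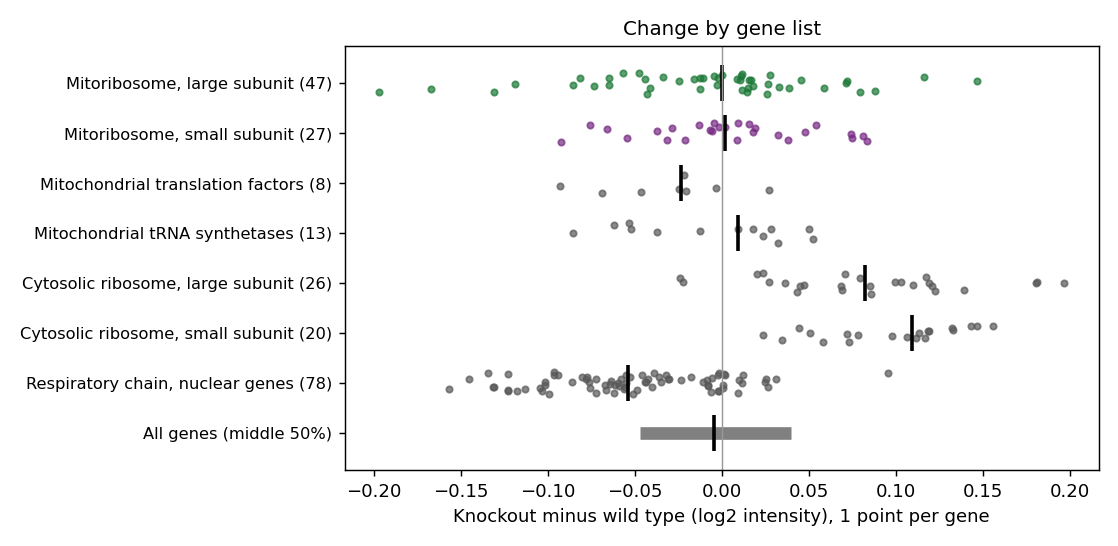
Difference between knockout and wild type in log2 intensity (x axis), 1 point per gene, for 7 gene lists (y axis, number of genes in brackets), with the median as a black bar and, for all genes, the middle 50% as a grey bar. Both mitochondrial subunits are centred near 0, the cytosolic ribosome at 0.082 and 0.11, and the respiratory chain at -0.054.

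Genes for proteins that work with the mitochondrial ribosome had no member past the threshold. For subunits with other symbols, 7 symbols were listed, among them Ict1 and Mrp63, which are older symbols of the members Mrpl58 and Mrpl57. Outside the members, 4 of these genes were measured. Dap3, a small subunit protein first named for a role in cell death, differed by 0.025 ± 0.048. Of the translation factors, 8 of 14 were measured and 7 lay below 0, with a median of -0.023. The elongation factor gene Tufm had the smallest p among them, at -0.069 ± 0.042, and Gfm2, which acts in ribosome recycling, differed by -0.093 ± 0.068 (limma, adjusted p = 0.887 and 0.909). The 20 measured of 26 assembly and ribosomal RNA processing genes had a median of -0.0083. For transfer RNA synthetases and amidotransferases 24 symbols were listed, with Gars and Kars each under an old and a new symbol. The 13 genes measured among these had a median of 0.0093. None of these 4 lists held a gene with an unadjusted p below 0.05.

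Among 16 measured of 18 genes of mitochondrial transcription and messenger RNA stability, 1 had an unadjusted p below 0.05. This was Polg2, the accessory subunit of the mitochondrial DNA polymerase, at 0.14 ± 0.054 (limma, unadjusted p = 0.0169, adjusted p = 0.781). All 12 regulators of nuclear genes for mitochondrial proteins were measured. Ppargc1a, a coactivator of mitochondrial biogenesis, averaged 7.70 ± 0.12 in knockout and 7.99 ± 0.17 in wild type (SD, n = 6 each), a difference of -0.29 ± 0.076 (SE; limma, unadjusted p = 0.0015, adjusted p = 0.564). Pprc1, a related coactivator, differed by 0.18 ± 0.059 (adjusted p = 0.769). The factors whose cores are marked in the start regions above showed smaller differences, at 0.028 ± 0.046 for Nrf1, 0.050 ± 0.076 for Gabpa, -0.061 ± 0.068 for Gabpb1 and 0.030 ± 0.059 for Yy1.

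The promoters of the members share letters that the choice of genes did not use. Windows of 300 bases, from 250 before the RefSeq start to 50 after it, were found for 65 of the 74 genes (41 large, 24 small subunit), and both strands were searched. The ETS core CCGGAAG was in 35.4% of member windows, against 15.0% of windows of the 9882 measured genes with one. The YY1 core AAGATGGC was in 16.9%, against 3.98%, and the NRF1 core CGCATGCG in 10.8%, against 3.19%. At least 1 of these 3 was in 35 of 65 member windows (53.8%), against 20.6% of measured genes, and at least 2 different ones in 6 member windows (9.23%), against 1.52%. Among general promoter elements, GGGCGG was in 52.3% of member windows and 57.5% of those of measured genes, CCAAT in 38.5% and 38.1%, and the TATA box in 6.15% and 10.1%. GGGCGG was in 41.5% of large and 70.8% of small subunit windows. The median GC content was 58.0% in member windows and 59.3% in those of measured genes.

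The subunits shared the ETS and YY1 letters. The ETS core was in 31.7% of large and 41.7% of small subunit windows, and the YY1 core in 14.6% and 20.8%. The NRF1 core was in 6 of 41 large and 1 of 24 small subunit windows. A match is a description of letters and not of a bound site, and no test was made. Between genotypes, the median difference was 0.0094 with the ETS core and -0.0019 without it, and 0.015 with the NRF1 core and -0.0032 without it. Among the genes whose start regions are printed above, Mrpl22, with an ETS and an NRF1 core, differed by 0.015 ± 0.065, and Mrpl32, with 2 NRF1 cores, by 0.016 ± 0.064. The longer window of Mrpl32 also holds a YY1 core. Mrpl34, with an ETS core, differed by -0.17, and Mrpl33, also with one, had no single direction over its probe sets.

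**Figure D5:**
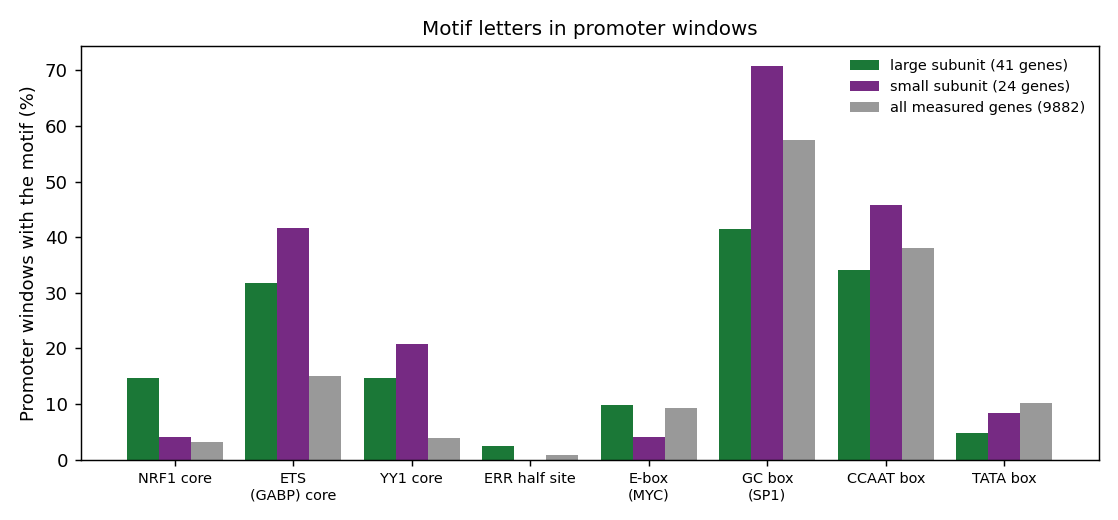
Share of 300-base promoter windows (y axis, percent) that hold each set of motif letters (x axis) for large subunit genes, small subunit genes and all measured genes. The ETS core is in 31.7% of large and 41.7% of small subunit windows, against 15.0% of measured genes.

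Member genes often faced another gene head to head. Within 500 bases, 21 of 65 (32.3%) had a start of another gene on the opposite strand, against 1462 of 9882 measured genes (14.8%). One such pair joins the subunits: the starts of Mrpl46, of the large subunit, and Mrps11, of the small subunit, lie 42 bases apart on chromosome 7, and the genes differed by 0.028 ± 0.051 and -0.0066 ± 0.051 between genotypes. Mrps12 faces Sars2, the mitochondrial seryl transfer RNA synthetase, over 147 bases (differences of 0.081 and -0.013). Mrpl47 faces Ndufb5, a subunit of complex I, over 308 bases (-0.056 and -0.055). Mrpl49 faces Fau, which encodes a protein of the cytosolic small ribosomal subunit, over 192 bases (0.012 and 0.12). Of the 14 distinct pairs with both genes measured, 7 had differences of the same sign and 7 of opposite signs.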

How the data were processed

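The deposited value table holds intensities. The authors used RMA, as the submitters' processing notes say; its version and settings are not given in the sources used here. The intensities are linear (7.47 to 21828), and log2 was taken here. Of 22690 probe sets, 64 array controls were left out. Genes were named through the platform annotation, and sequences and gene order came from RefSeq (GRCm38.p6).

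The members, lists, motifs and tests were chosen with earlier results of these data known. Knockout was compared with wild type over all 22626 probe sets by the lmFit and eBayes functions of limma 3.58.1 (R 4.3.3), two-sided, with genotype alone in the model, Benjamini-Hochberg adjustment and a threshold of 0.05. The fit was checked on simulated data. Named members were those with the 6 smallest p-values in each direction, those on chromosome 1, those whose symbol misstates their place, those with opposed probe sets of which at least 1 had an unadjusted p below 0.05, and those with the largest and smallest SD. Labels call the 6 mice per genotype biological replicates, and this number limits the precision.

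Wash runs are groups of arrays that were split here at gaps in the hybridization times of the array records. There were 3 such runs, each with 2 arrays of each genotype. The records also gave 2 scan days, 4 fluidics modules and 3 cage letters. Scan days and cage letters were balanced between genotypes, but modules were not. Modules 1 and 2 each held 2 knockout arrays and 1 wild type array, and modules 3 and 4 each held 1 and 2. Module and genotype were thus partly confounded. Array medians lay between 132.2 and 139.5 intensity units, array pairs correlated at 0.991 to 0.997, and 0 pairs were identical. Alternatives were other scalings, filters, priors, array weights, batch and replicate blocks, the mean of probe sets, and leaving out each array.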

Additional observations from a re-analysis of the deposited data

Results flagged for a closer look

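Single arrays lay far from the rest of their genotype in 5 of the 52 groups of 6 arrays examined with Dixon's test at the 95% level. For independent groups not picked by their values, chance gives about 1 in 20. Many named members were picked by their p-values or SDs, and all groups share the same arrays. That rate is therefore no measure for them, and the share over all genes was not computed. The 52 groups were the named members and the array levels of the large and small subunit, in each genotype. Knockout replicate 2 was low for Mrpl18, at 8.49 against 8.72 to 8.84 in the other knockout arrays, and for Mrpl44, at 8.57 against 8.89 to 9.06. Wild type replicate 1 was low for Mrpl21, at 8.96 against 9.05 to 9.09 in the other wild type arrays. Wild type replicate 2 was low for Mrps14, at 10.44 against 10.51 to 10.54. Wild type replicate 6 was high for Mrps33, at 9.15 against 8.98 to 9.03.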

How the results depend on the processing

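In each alternative run, 0 of the measured members passed the adjusted threshold, and the smallest adjusted p of a named member over these alternatives was 0.539 (Mrpl44, with only probe sets above the median level). The median difference ran from -0.025 to 0.017 for the large subunit and from -0.011 to 0.027 for the small subunit, and the number of members lower in knockout from 24 (fluidics module block) to 48 (further quantile normalization), so no direction of the members as a group can be given. Leaving out 1 array at a time gave 27 to 43 lower members. Same-numbered arrays of the genotypes deviated together at correlations from -0.15 to 0.20, and 1 of 12 arrays correlated best with its own number. Arrays with the same number also carried the same cage letter, so these correlations cannot show whether the mice were paired by design. With the replicate block, 36 members were lower, 0 passed and Mrpl44 had an adjusted p of 0.666.

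Some differences turned their sign, most of them close to 0 but also those of Mrpl33 (0.12) and Mrps9 (0.075). Centring the arrays gave 0.010 for Mrps14 and 0.0095 for Mrpl24, and array weights gave 0.012 for Mrpl24. A further quantile normalization gave -0.063 for Mrps9, where another probe set became the brightest, and -0.022 for Mrps18a. The fluidics module block gave 0.034 for Mrps14, 0.0030 for Mrps30, 0.046 for Mrpl24 and 0.041 for Mrps31. Averaging the probe sets of each gene gave -0.031 for Mrpl33 and, with the sign kept, -0.10 for Mrpl44, -0.095 for Mrpl34, -0.043 for Mrpl50, -0.068 for Mrpl3, -0.037 for Mrpl15 and 0.023 for Mrpl21. Leaving out 1 array at a time gave ranges from -0.031 to 0.025 for Mrps14, from -0.077 to 0.019 for Mrps30, from -0.068 to 0.051 for Mrpl24, from -0.065 to 0.035 for Mrps31, from -0.013 to 0.051 for Mrps18a, from -0.099 to -0.043 for Mrps36 (sign kept, without knockout replicates 4 and 1) and from -0.0031 to 0.035 for Mrpl49. The causes were not tested.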
